A study of Mus musculus with 6 samples.

Results

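The complement genes described here are the 3 chains of C1q (C1qa, C1qb and C1qc), C4b, C3, Cfb, Cfd, Serping1 and C3ar1. They were chosen by gene symbol, and all 9 were found among the 53647 genes of the files. The data are single cell RNA sequencing libraries of proximal pulmonary arteries (PAs) from 6 wild type C57BL/6J mice, 1 library per mouse. The young group held 2 mice of 3 months, a male and a female, and the old group held 4 mice, which were a female of 28 months and males aged 20, 24 and 27 months. Another young male of the study was not analysed here. No mouse carried an engineered allele or was given an agent. The arteries were taken with the tissue around them and digested with collagenase and elastase, so lung, airway and lymphoid cells were captured with the wall. The study obtained mice from a commercial supplier, and some old mice from an aging colony, and which old mouse came from which source was not used here.

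Complement is a cascade of plasma and tissue proteins that tags targets for uptake and draws in immune cells. The classical route begins when C1q binds a target and its proteases cut C4, and the alternative route amplifies C3 through factor B (Cfb) and factor D (Cfd). All routes meet at C3, whose fragment C3a signals through the receptor C3ar1, while the C1 inhibitor (Serping1) restrains the proteases of the first step. The liver makes much of the plasma supply, and macrophages and mesenchymal cells of many tissues also transcribe parts of the cascade.

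Levels are CPM, the tags of a gene (UMIs, barcodes given to each captured RNA so that copies are counted once) per 1000000 UMIs of all genes, summed over the cells of 1 type in 1 library. Only types with at least 10 cells in a library are given. The files hold no annotation of cells, so types were named from clusters and marker genes, and each name below means cells like that type. A total of 15319 cells were kept, of which 1008 (6.58%) were left without a name by the marker rule. This share reached 34.9% in the young female. Depth differed between libraries. They held from 6355125 to 50436562 UMIs, and the median UMIs per barcode were 8150 at 27 months and 5465 at 28 months against 801.5 to 2162 in the other 4 libraries. Barcodes with at most 100 UMIs, read as RNA outside cells, held 54.4% and 57.8% of all UMIs in the young male and female. In the old mice they held 43.5%, 38.5%, 10.6% and 2.29% at 20, 24, 27 and 28 months. This share thus differed between the age groups, and it was lowest in the 27 and 28 month libraries, which held the most UMIs. The limit of 100 UMIs was the same at every depth, and the part of depth in the share was not tested. A set of 3 libraries (young male, young female and 24 months) shared from 131 to 215 cell barcodes in each pair, against at most 4 in every other pair. Of the cells with a shared barcode, 558 were airway epithelial cells (of 1363 kept), 10 were fibroblasts (FBs) and 7 were macrophages (MΦs).

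The stretches of DNA before the start sites of C1qb, C3 and Cfd are shown because these members were measured in 3 different kinds of cell. They are the 150 bases upstream of the RefSeq start in GRCm38.p6, printed 5′ to 3′ on the strand of the gene. Capitals mark matches, on either strand, to GAGGAA (a core bound by PU.1), TGCTGA (a half-site of Maf factors) or TTGCNNAA (a core of C/EBP factors).
C1qb, chr4:136886201-136886350, minus strand: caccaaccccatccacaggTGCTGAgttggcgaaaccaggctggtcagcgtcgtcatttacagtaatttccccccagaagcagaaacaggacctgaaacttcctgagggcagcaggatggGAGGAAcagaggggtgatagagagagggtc
C3, chr17:57228137-57228286, minus strand: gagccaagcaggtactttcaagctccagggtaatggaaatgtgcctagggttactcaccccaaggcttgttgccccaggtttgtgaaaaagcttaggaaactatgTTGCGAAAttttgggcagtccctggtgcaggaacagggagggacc
Cfd, chr10:79890703-79890852, plus strand: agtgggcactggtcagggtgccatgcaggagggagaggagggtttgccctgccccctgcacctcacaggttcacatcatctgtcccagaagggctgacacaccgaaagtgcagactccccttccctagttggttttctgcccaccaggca

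C1qb held 1 GAGGAA match beginning 30 bases before the start and 1 TGCTGA match at 131 bases. C3 held 1 TTGCNNAA match at 45 bases, and Cfd held none of the 3 in this window. Of the members with a window that is not printed, C3ar1 held 1 TGCTGA match at 144 bases and no other, and C1qc held none. Among 32851 promoter windows of the same length, 14.5% held GAGGAA, 10.1% held TGCTGA and 5.46% held TTGCNNAA. These matches describe letters and not binding.

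Each of the measured complement genes sat in few cell types. MΦs, which were 9.04% of the cells, held 91.4% of the C1qa UMIs, 90.5% of the C1qb UMIs and 89.7% of the C3ar1 UMIs. FBs, at 11.6% of the cells, held 65.3% of the C3 UMIs and 70.9% of the Serping1 UMIs. C4b was divided among FBs with 36.1% of its UMIs, MΦs with 34.0%, mesothelial cells with 12.8% and smooth muscle cells (SMCs) with 9.80%. Of the Cfd UMIs, 91.7% lay in clusters without a name. These shares pool libraries of unequal depth, so they are weighted to the 27 and 28 month mice.

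**Figure D1:**
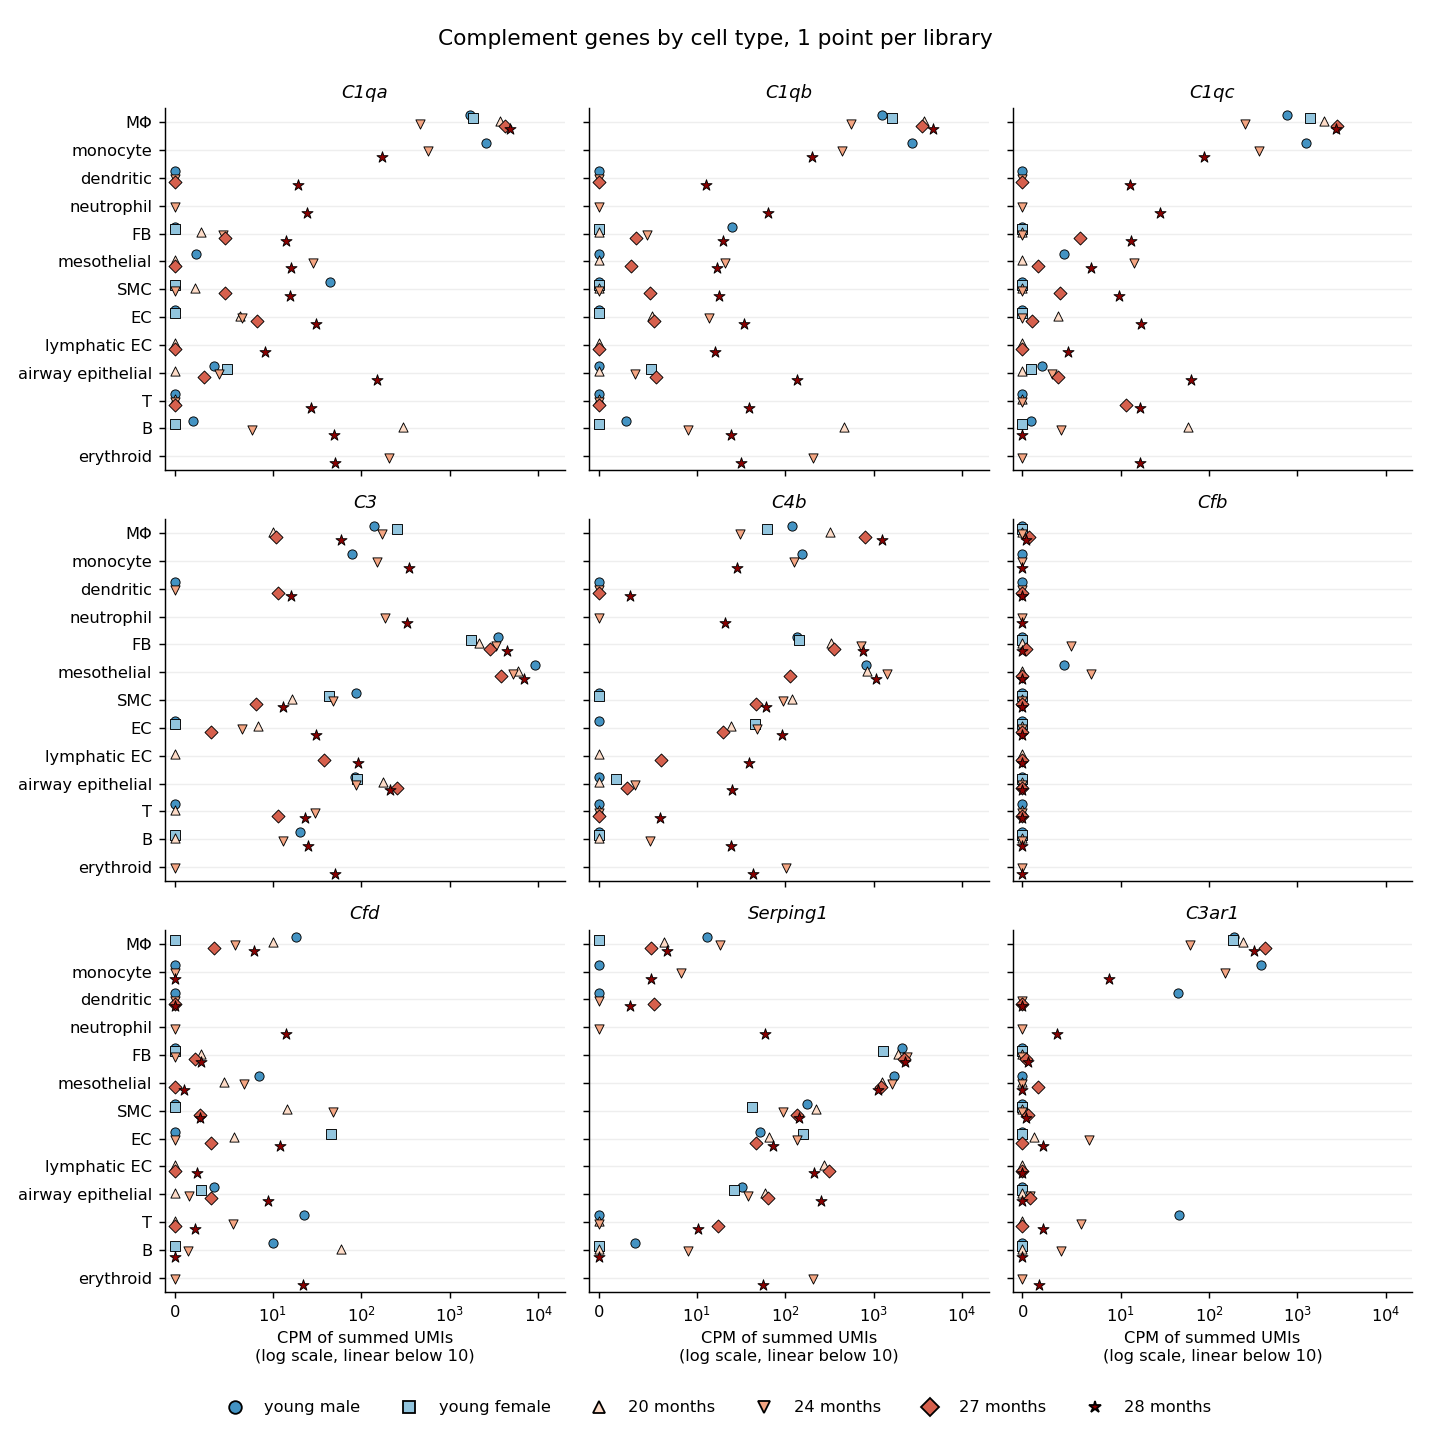
Level of each of the 9 members (CPM of summed UMIs, log axis that is linear below 10) in 13 cell types, with 1 point per library that held at least 10 cells of the type. The C1q chains and C3ar1 sit high in MΦs and spread widely in monocytes, C3 and Serping1 in FBs and mesothelial cells, C4b in all 3 of MΦs, FBs and mesothelial cells, and Cfb and Cfd near 0 in every named type.

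C1q is the recognition protein of the classical route, built from an A, a B and a C chain, each from its own gene. The 3 genes lie side by side on the minus strand of chromosome 4 (GRCm38, GENCODE M21), with C1qb at 136880129-136886187, C1qc at 136889804-136893065 and C1qa at 136895917-136898803. In MΦs, C1qa was at 1687 CPM in the young male, 1819 in the young female, and 3733, 457, 4248 and 4823 at 20, 24, 27 and 28 months. The lowest level was that of an old mouse, the male of 24 months, and the other 3 old mice lay above both young ones. C1qb in MΦs was at 1256 and 1630 CPM in the young male and female and at 3710, 562, 3523 and 4693 CPM in the old mice in the same order. C1qc in MΦs was at 759 and 1380 CPM in the young and at 1988, 253, 2807 and 2710 CPM in the old. All 3 chains thus put the 6 libraries in nearly one order, with the 24 month library last.

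In FBs, C1qa stood at 0 UMIs in both young libraries and at 2.64 to 14.1 CPM in the old ones, and C1qb did not exceed 24.9 CPM. The RNA outside cells, measured in barcodes with at most 100 UMIs, held C1qa at 34.4 to 451 CPM, and in each library the C1qa level of FBs was below that of free RNA. In the young female a count of 0 in FBs allows a level above that of free RNA, so this order cannot be read there. At 28 months a C1qa UMI was seen in 8.59% of FBs, 8.71% of SMCs and 8.49% of endothelial cells (ECs), at median depths of 6386, 6622 and 2820 UMIs. With every cell thinned to 500 UMIs, the share of MΦs with a C1qa UMI was 84.2% at 27 months and 80.8% at 28 months, against 0.202% and 1.47% of FBs. It was 40.4% in the young male, 43.5% in the young female, 57.4% at 20 months and 15.9% at 24 months. Without thinning these shares of MΦs were 95.02% at 27 months, 92.7% at 28 months, 46.3% in the young male, 47.8% in the young female, 69.7% at 20 months and 22.8% at 24 months.

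The MΦs of different libraries fell in different subclusters, which bears on every MΦ value here. The clustering had no step to align libraries, so a subcluster held mainly by 1 library need not be a separate kind of MΦ. At 27 months 76.3% of MΦs lay in 1 subcluster and at 28 months 47.6% lay in another, both named perivascular MΦs from their markers. At 20 months 91.0% lay in a subcluster of their own, and in the young male 50.3% and 29.7% lay in 2 more, none of which took a name. Lyve1, a marker of perivascular MΦs, was at 297 and 125 CPM in the young male and female MΦs, at 276 and 37.0 CPM at 20 and 24 months, and at 1564 and 763 CPM at 27 and 28 months. H2-Aa, an MHC class II gene that dendritic cells also express, was at 4611 and 6898 CPM in the young, 4558 and 6491 CPM at 20 and 24 months, and 2851 and 2955 CPM at 27 and 28 months. The summed level of the 8 perivascular markers ran from 1567 to 16275 CPM over the 6 libraries. The 24 month library had the lowest C1q, the lowest Lyve1 and the lowest perivascular sum, and the part of these differences in the C1q levels was not tested.

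Within the myeloid cells, C1q was high in perivascular and MHC class II high MΦs, near 0 in dendritic cells and at 0 UMIs in lung MΦs. In perivascular MΦs C1qa was at 4689 CPM at 27 months (198 cells) and 5747 CPM at 28 months (228 cells). In MHC class II high MΦs it was at 4387 CPM (10 cells) and 6105 CPM (21 cells) in the same mice. Dendritic cells held 0 UMIs of all 3 chains in the young male, at 24 months and at 27 months, and 19.2 CPM of C1qa at 28 months. Cells named monocytes spread widely, from 170 CPM of C1qa at 28 months (83 cells) to 566 at 24 months (127 cells) and 2567 in the young male (16 cells). Those of the young male and of 24 months came from a subcluster led by hemoglobin genes with Ly6c2 and Plac8. It had 3 of 7 monocyte and 4 of 5 erythroid markers raised. That subcluster held 1 cell at 28 months, so these 3 values are not of one kind of cell. Under a stricter filter (1000 UMIs and 500 genes), 0 young cells and 1 cell at 24 months were named monocytes. With complement genes kept in the clustering both had 0, so the name is uncertain in these 2 libraries. There C1qa was above that of all MΦs, at 1687 CPM in the young male and 457 CPM at 24 months. Lung MΦs, named from genes of MΦs of the air spaces, had 10 cells at 24 months with 0 UMIs of each chain, which allows up to 205 CPM. As myeloid subclusters, perivascular and MHC class II high MΦs reached 10 cells in the 27 and 28 month libraries alone, so these subclusters allow no comparison with young mice. The first clustering of all cells gave the name MHC class II high MΦs more widely. One such cluster held C1qa at 1609 CPM in the young male (406 cells) and 425 CPM at 24 months (300 cells). Most of its cells took no name when the myeloid cells were clustered again.

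A subcluster held mainly by the young male (111 cells) and the 24 month mouse (66 cells) had little C1q. In these libraries C1qa was at 213 and 113 CPM there, Lyve1 at 0 in both, and H2-Aa at 8434 and 7974 CPM. It made up 45.5% of the MΦs at 24 months and 29.7% in the young male, and it stayed among the pooled MΦs because no other name met the marker rule.

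The proportions of the 3 chains varied less than their levels. In MΦs C1qa made up 39.7% ± 3.26 of C1q UMIs, C1qb 37.1% ± 4.30 and C1qc 23.1% ± 3.57 (SD, n = 6 libraries). C1qa levels differed 10.6-fold between the highest and lowest library, while its share of the chains ran from 35.9% to 45.6%. In free RNA C1qa made up 29.3% to 40.9% of C1q UMIs over the 6 libraries. All 3 chains were seen together in 93.8% of MΦs at 27 months and 89.1% at 28 months, at median depths of 6166 and 5701 UMIs. At median depths of 622 to 2364 UMIs in the other 4 libraries, this share was 12.4% to 59.8%.

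**Figure D2:**
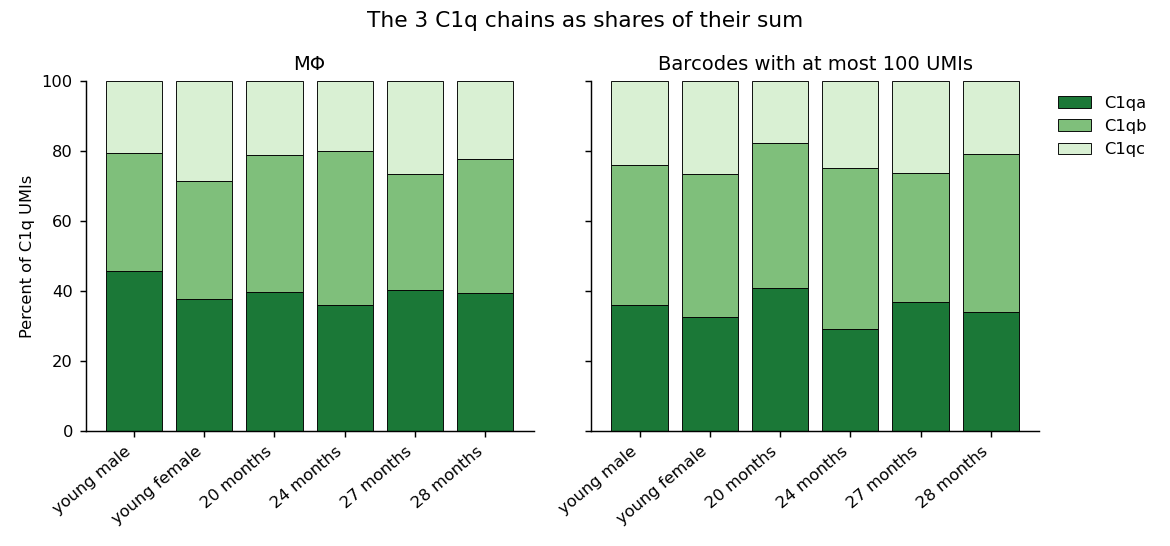
Share of C1q UMIs from each chain gene (percent, stacked bars from 0 to 100) in MΦs and in barcodes with at most 100 UMIs, for each of the 6 libraries. In MΦs the C1qa share lies between 35.9% and 45.6% in every library, and C1qc is the smallest share in every library.

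C4b encodes complement C4, the substrate cut by the activated C1 complex. It lies on the minus strand of chromosome 17 at 34728380-34743882, near the paralog C4a at 34809092-34823464. C4b had 14247 UMIs in named cells and C4a had 68, and reads that fit both genes could be split or dropped in counting, so the C4b counts carry that uncertainty. In mesothelial cells C4b was at 821 CPM in the young male and at 835, 1403, 115 and 1075 CPM at 20, 24, 27 and 28 months. In MΦs it was at 118 and 62.7 CPM in the young male and female and at 322, 30.9, 805 and 1240 CPM in the old mice. In FBs it was at 137 and 143 CPM in the young and 328, 712, 359 and 763 CPM in the old. The 3 types overlapped, and which of them was highest changed from library to library.

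C4b differed between the subclusters named perivascular and MHC class II high MΦs. Perivascular MΦs held 946 CPM at 27 months and 1809 CPM at 28 months. MHC class II high MΦs of the same mice held 0 UMIs and 7.5 CPM, where the limit that a count of 0 allows was 56.7 CPM at 27 months. C1qa differed by less between the kinds in these libraries, as given above. With 2 libraries and 31 MHC class II high cells in all, this is a description with no test. Other cells with raised MHC class II high markers did hold C4b. An unnamed subcluster of 88 cells at 28 months, with 7 of 8 of these markers raised, held 968 CPM. At 20 months a cluster of 111 cells, with 8 of 8 raised and named MHC class II high MΦs in the first clustering, held 327 CPM. Both groups also had perivascular markers raised, 5 of 8 and 6 of 8, with Lyve1 at 487 and 292 CPM. Lyve1 was at 0 in the cells named MHC class II high MΦs. Against myeloid cells alone, the 20 month subcluster of 111 cells had 3 of 8 MHC class II high markers raised. C4b near 0 was thus not common to all cells with these markers, but the cells that held it carried perivascular markers too.

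**Figure D3:**
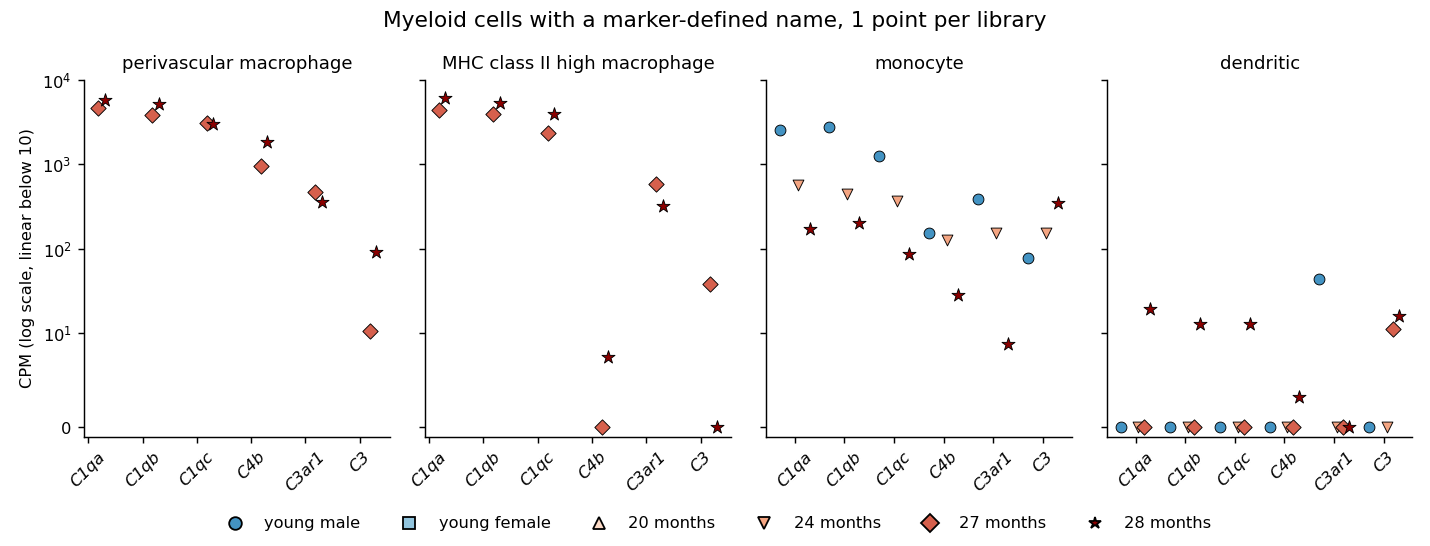
Level of 6 members (CPM, log axis that is linear below 10) in 4 of the 5 kinds of myeloid cell named within the myeloid subclusters (lung MΦs, at 0 UMIs of C1q, are not drawn), with 1 point per library that held at least 10 such cells. C4b is near 0 in the cells named MHC class II high MΦs and 946 and 1809 CPM in perivascular MΦs of the same libraries, while C1q is high in both.

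SMCs, the contractile cells of the wall, held little C4b. The young male (26 SMCs) and young female (34 SMCs) had 0 UMIs, and the old mice had 120, 94.3, 47.0 and 61.3 CPM at 20, 24, 27 and 28 months. The 24 month value rested on 2 UMIs. Free RNA of these old libraries held C4b at 72.1, 50.3, 51.5 and 279 CPM in the same order. This was above the SMCs at 27 and 28 months and below them at 20 and 24 months. The young libraries held 46313 SMC UMIs together, so a count of 0 allows up to 64.8 CPM, which is above the 2 deepest old values. The mean of the old libraries, 80.6 CPM, was at least 1.24-fold higher than that limit, and the pooled old level of 51.4 CPM was below it, so no difference in SMCs was detectable at this depth.

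C3 is the central protein of the cascade, and its gene lies on the minus strand of chromosome 17 at 57203970-57228136. Mesothelial cells, the lining cells of the outer surface, had the highest C3 of any type. They held 9253 CPM in the young male and 5970, 5176, 3786 and 6856 CPM at 20, 24, 27 and 28 months, and fewer than 10 cells in the young female. FBs held 3553 and 1720 CPM in the young male and female and 2124, 3332, 2824 and 4484 CPM in the old mice. Mesothelial cells were above FBs in 5 of 5 libraries, by 1.34-fold to 2.81-fold, although the ranges of the types over libraries overlapped. In FBs the FB markers summed to between 19060 and 27569 CPM, and in mesothelial cells the same markers summed to between 7199 and 8444 CPM.

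Other types held far less C3. MΦs were at 139 and 251 CPM in the young and 9.97, 173, 10.7 and 58.5 CPM at 20, 24, 27 and 28 months. Neutrophils held 183 CPM at 24 months and 330 CPM at 28 months, and monocytes 77.8, 152 and 347 CPM in the young male, at 24 months and at 28 months. Airway epithelial cells held 84.9 to 250 CPM. Free RNA held 178 to 222 CPM of C3 in 5 libraries and 717 CPM at 28 months. Of these values only the MΦs of the young female and the airway cells at 27 months were above the free RNA of their own library. After thinning to 500 UMIs, C3 was seen in 41.4% to 74.7% of FBs and in 0.82% to 4.81% of MΦs.

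Factor B and factor D, the proteases of the alternative route, were the members with the fewest counts in named cells. Cfb had 8 UMIs in all kept cells, 3 of them in mesothelial cells, so its cell type could not be read. In GENCODE M21 on GRCm38, 79.5% of the exon bases of Cfb (chromosome 17, 34856374-34862518) are shared on the same strand with exons of Gm20547, a gene that had 0 UMIs. C2, which shares 42.8% of its exon bases with Gm20547, had 53 UMIs in named cells. Itgam, which shares 68.7% with Gm49368, had 0 UMIs, and Gm49368 had 30. The other 8 members share no exon base on their strand with another gene. A counter that leaves out reads assigned to more than 1 gene would lose reads in shared exons, and its part in the Cfb count was not tested. The level of Cfb RNA was not read from this count.

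Cfd, known as adipsin and made by fat cells, lies on the plus strand of chromosome 10 at 79890853-79892655. Its highest mean in any named type was 14.0 CPM. One unnamed cluster of 25 cells from 5 libraries held 2742 of 3005 Cfd UMIs, at 22204 CPM (95% exact Poisson interval 21380 to 23050, counting error only). Adipoq, Fabp4 and Car3, which fat cells express, led this cluster along with Cfd itself, and Cfd was seen in 22 of its 25 cells. Free RNA held Cfd at 177 and 159 CPM in the young and at 550, 70.6, 196 and 51.1 CPM in the old in the same order of ages, against at most 58.5 CPM in any named type of any library.

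Serping1 encodes the C1 inhibitor and lies on the minus strand of chromosome 2 at 84765387-84775444. In FBs it was at 2095 and 1290 CPM in the young male and female and 1876, 2397, 2213 and 2275 CPM in the old mice. In mesothelial cells it was at 1722 CPM in the young male and 1253, 1606, 1227 and 1121 CPM in the old. FBs were above mesothelial cells in 5 of 5 libraries, the reverse of the order for C3. Serping1 also varied least among the members in FBs, with a coefficient of variation of 19.8% over 6 libraries against 33.4% for C3 and 66.9% for C4b.

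The contractile and lining cells of the vessel held Serping1 at lower levels. Lymphatic ECs were at 274, 310 and 214 CPM at 20, 27 and 28 months. SMCs were at 175 and 42.6 CPM in the young and 221, 94.3, 137 and 143 CPM in the old. ECs ran from 46.6 to 160 CPM. MΦs did not exceed 18.5 CPM in any library. Free RNA held 81.1 and 77.5 CPM in the young male and female and 139, 102, 162 and 291 CPM in the old. SMCs were above free RNA in the young male and at 20 months and below it in the other libraries. Lymphatic ECs were below it at 28 months and above it at 20 and 27 months. The range of ECs overlapped that of free RNA, and its part in these values was not tested. After thinning to 500 UMIs, Serping1 was seen in 48.3% to 64.8% of FBs, 2.94% to 9.52% of SMCs and at most 1.38% of MΦs.

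C3ar1, the receptor for C3a, lies on the minus strand of chromosome 6 at 122847138-122856161 and was measured mainly in MΦs. In MΦs it was at 192 and 188 CPM in the young male and female and 239, 61.7, 431 and 323 CPM in the old. Monocytes held 389 CPM in the young male (5 UMIs) and 152 CPM at 24 months, both from the subcluster led by hemoglobin genes. At 28 months, where the monocytes lay in another subcluster, they held 8.86 CPM, below the 25.1 CPM of free RNA in that library. FBs, SMCs, ECs and mesothelial cells held at most 6.82 CPM in any library, and free RNA held 5.86 to 25.1 CPM. The receptor was thus measured in cells with little C3, and its ligand precursor in cells with almost no receptor.

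An unnamed cluster of 174 cells, found in the young male (46 cells), the young female (36) and the 24 month mouse (92), also held the MΦ members. Its leading genes were Prg4, Saa3, Cxcl2 and Lyz2. Over its cells C1qa was at 1364 CPM, C4b at 1369 CPM and C3ar1 at 226 CPM. By library, C4b there was at 601 CPM in the young male, 1838 in the young female and 1468 at 24 months. The mesothelial cells of the same libraries held 821 CPM in the young male and 1403 CPM at 24 months, so C4b of the cluster was below them in the one and above them in the other. The cluster was held by the same 3 libraries that share barcodes.

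Within each library, MΦs and FBs were compared for all 9 members on log2(CPM + 10), which understates the change of low genes. The exact sign-flip permutation test over 6 libraries (two-sided) can give no p below 0.0312. C1qa was higher in MΦs by 7.31 ± 1.20 (SD, n = 6 libraries), C1qb by 6.94 ± 1.41, C1qc by 6.68 ± 1.08 and C3ar1 by 4.42 ± 0.88, each in 6 of 6 libraries. C3 differed by -5.23 ± 1.68 and Serping1 by -6.83 ± 0.32, with FBs above in 6 of 6 libraries. Each of these 6 members had the smallest p that the exact permutation test can give, 0.0312, which is 0.0469 after Benjamini-Hochberg adjustment over 9 members.

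The other 3 members did not pass. C4b differed by -0.60 ± 1.90 (exact permutation adjusted p = 0.668, n = 6), with MΦs above at 27 and 28 months and FBs above in the other 4. The 24 month library carried most of that mean, at -4.14, and without it the mean was 0.11. Cfd differed by 0.60 ± 0.52 (exact permutation adjusted p = 0.0804, n = 6) and Cfb by -0.08 ± 0.25 (adjusted p = 1, exact permutation), both at levels near 0. The test compares types that were defined by other genes, since the complement genes were left out of the clustering and the markers.

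**Figure D4:**
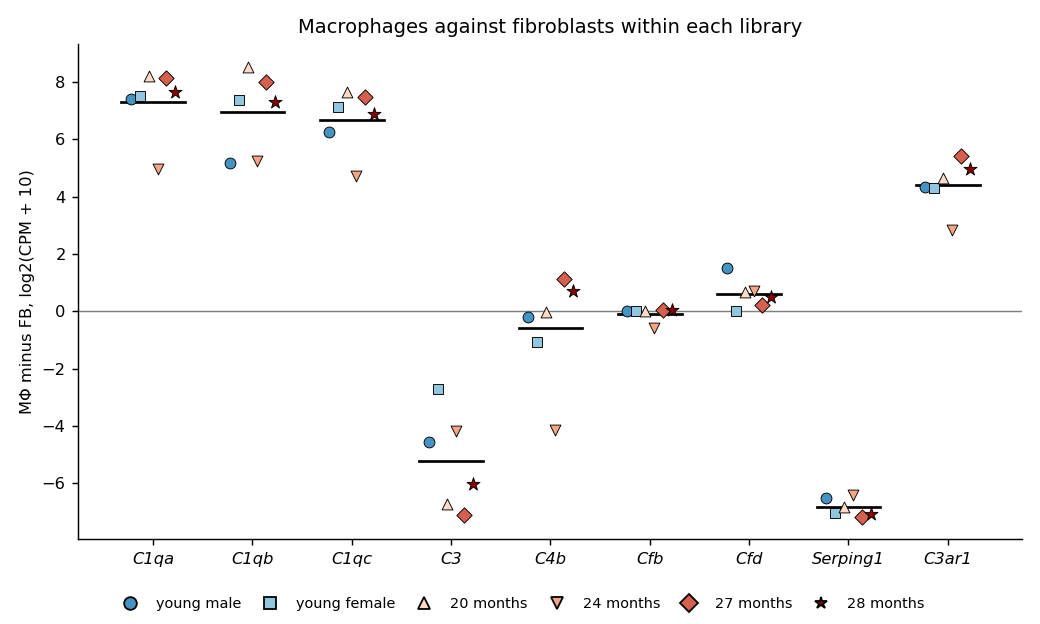
Difference between MΦs and FBs of the same library (MΦ minus FB, log2(CPM + 10)) for each member, with 1 point per library and a bar at the mean of 6. The C1q chains and C3ar1 lie above 0 and C3 and Serping1 below 0 in all 6 libraries, while the C4b points fall on both sides.

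Whether these genes changed with age was asked in each type that held at least 2 young and 2 old libraries, by edgeR's quasi-likelihood test on summed counts with Benjamini-Hochberg adjustment over all genes tested in the type. Each library is 1 mouse. Members had enough counts to be tested in 5 types, and in B cells, the other type with enough libraries, none had. No member passed an adjusted p under 0.05 in these 5 types. The group of 2 young libraries is small and shallow, and a p that misses the threshold does not show that levels were equal.

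In FBs 3 members passed the filter on low counts. C4b counts were 11 and 3 UMIs in the young male and female and 124, 144, 1047 and 4044 UMIs in the old mice. Its CPM values, given above, put every old library above both young ones, from 328 CPM upward against at most 143 CPM. The 95% exact Poisson intervals of the young values were wide, 68.5 to 245 CPM in the male and 29.6 to 419 CPM in the female, and the upper one reached past 2 of the 4 old values. The fitted log2 fold change of C4b, old over young, was 2.0 ± 0.59 (SE), with an adjusted p of 0.704 by edgeR. Of 6753 genes tested in FBs, 0.0444% passed and 16.7% had every old library above every young one, as C4b did.

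C3 in FBs differed by 0.27 ± 0.47 (SE, log2, old over young; edgeR adjusted p = 0.972) and Serping1 by 0.40 ± 0.44 (adjusted p = 0.929), and both groups overlapped. Without the young female both estimates fell below 0, to -0.27 for C3 and -0.03 for Serping1. The median of the 3 members was 0.40, and the median of all genes tested in FBs was 0.19. Over 15 alternatives C4b ranged from 1.80 to 2.56, with edgeR or DESeq2 adjusted p from 0.124 to 1.00, and it stayed positive in each.

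In MΦs 6 members passed the filter, and in all 6 the groups overlapped. The log2 differences, old over young, were 1.16 ± 0.82 for C1qa, 1.38 ± 0.79 for C1qb and 1.17 ± 0.83 for C1qc (SE), with edgeR adjusted p from 0.859 to 0.882. C4b differed by 2.66 ± 1.28 (edgeR adjusted p = 0.858), C3ar1 by 0.65 ± 0.71 (0.918) and C3 by -1.41 ± 1.14 (0.902). Young C4b rested on 45 UMIs in the male and 1 in the female. The estimates leave out the unnamed cluster led by Prg4 and Saa3, which also held the MΦ members. Its C4b was at 601 CPM in the young male, 1838 in the young female and 1468 at 24 months. In the young female it had 36 cells, against 23 MΦs. How the estimates change with its cells included was not tested. Among the members C3 alone had a negative estimate. Young C3 rested on 57 UMIs over both libraries, at 139 CPM in the male and 251 CPM in the female. Free RNA of these libraries held 213 and 193 CPM of C3, and every old MΦ value was below the free RNA of its own library. No gene of 5602 tested in MΦs passed in edgeR (0%) or in DESeq2, 296 had an unadjusted edgeR p under 0.05, and 11% had every old library above every young one. The median of the 6 members was 1.16 and that of all genes 0.30.

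The estimates in MΦs depended on which libraries were set side by side. With membership of the barcode-sharing set as a term in the fit, C1qa was at -1.70, C1qb at -1.10, C1qc at -1.76, C4b at -1.61, C3ar1 at -1.45 and C3 at 0.21 (log2, old over young), each on the other side of 0. In this fit the young mice are compared with the 24 month mouse, since the remaining 3 libraries are all old. Age and library set cannot be told apart for the other 3 old mice.

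In SMCs C4b and Serping1 passed the filter. Serping1 differed by 0.96 ± 0.92 (SE, log2; edgeR adjusted p = 0.868), with overlapping groups, and was at -0.13 with the library set as a covariate. Its young values rested on 5 UMIs over both libraries. That of the young female, 42.6 CPM, was below the 128 CPM that a count of 0 allows there. It was also below the free RNA of its library, as were the SMC values at 24, 27 and 28 months. C4b, at 0 UMIs in the young, has no fold that can be read (edgeR adjusted p = 0.746). Of 6983 genes tested in SMCs, 0.0573% passed and 9.59% had every old library above every young one. C4b is among these, but the young libraries allow up to 131 and 128 CPM at a count of 0, above every old value, so nothing can be read from that order.

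In ECs Serping1 alone was tested, at -0.38 ± 0.67 (SE, log2; edgeR adjusted p = 0.959). It overlapped between groups and was above 0 in 3 alternatives, at 0.60 with the library set as a covariate. Its EC levels overlapped those of free RNA, as given above. No gene of 5852 passed in ECs in edgeR (0%), 1 passed in DESeq2, 346 had an unadjusted edgeR p under 0.05, and 12% had every old library above every young one.

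Airway epithelial cells, captured from the tissue around the artery, had 2 members tested. Serping1 was at 32.3 and 26.6 CPM in the young male and female and 58.4, 37.9, 64.0 and 252 CPM in the old, and the groups did not overlap. It differed by 1.49 ± 0.66 (SE, log2; edgeR adjusted p = 0.770). C3 was at 84.9 and 88.6 CPM in the young and 175, 87.7, 250 and 208 CPM in the old, with the 24 month value inside the young range, and differed by 0.85 ± 0.39 (adjusted p = 0.770). The young and 24 month libraries form the set that shares barcodes, and 558 of 1363 airway cells share one, so these profiles may not be independent. Over 14 alternatives, the library set as a covariate among them, C3 ran from 0.11 to 1.11 and Serping1 from 0.47 to 1.78. No gene of 8250 passed in these cells in edgeR (0%) or in DESeq2, 504 had an unadjusted edgeR p under 0.05, and 9.05% had every old library above every young one. The 28 month library held 21 airway cells, and without it the Serping1 estimate was 0.84. Free RNA held Serping1 at 81.1 and 77.5 CPM in the young and 139, 102, 162 and 291 CPM in the old. In each library this was above the airway cells, and the age groups did not overlap in free RNA either. Its part in the airway values was not tested.

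**Figure D5:**
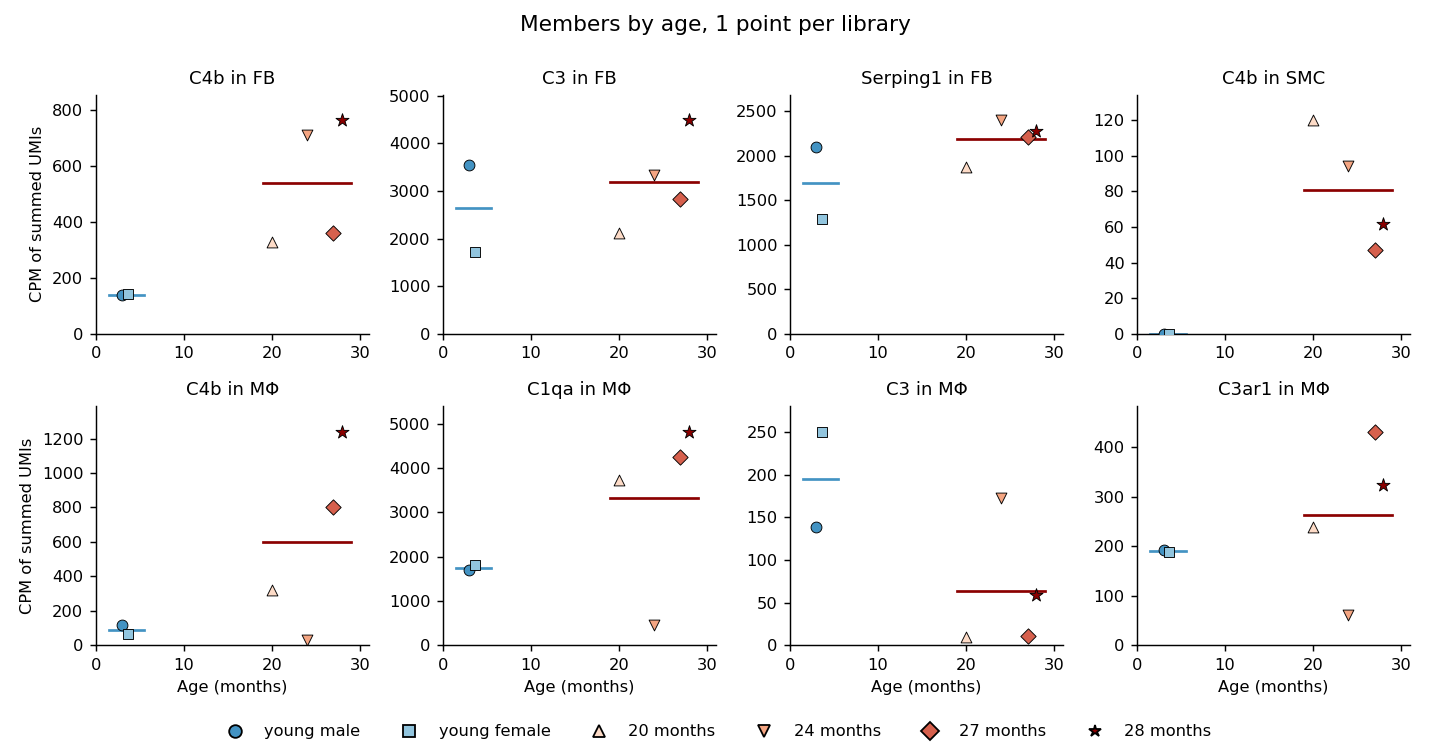
Level (CPM of summed UMIs, axis from 0) of 5 members in FBs, SMCs or MΦs against age in months, with 1 point per library and bars at the means of the 2 young and the 4 old libraries (the young female is drawn slightly to the right of the male). C4b in FBs shows no overlap between the groups, C4b in SMCs is at 0 UMIs in both young libraries, whose limits of 131 and 128 CPM lie above the old values, and in MΦs the 24 month library lies at or below the young libraries for C4b, C1qa and C3ar1.

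The rest of the cascade was described with 43 other complement genes listed by role. None of them passed in the 5 types, where 10 were tested in FBs, 9 in SMCs, 9 in ECs, 13 in MΦs and 6 in airway cells by edgeR. In MΦs 11 of the 13 had an estimate above 0, as had 3708 of all 5602 genes, and 2 had every old library above every young one, against 11% of all genes. In FBs 7 of 10 were above 0, as were 4049 of all 6753 genes, and 1 had every old library above every young one, against 16.7%. Cd55b and C1qbp had every old library below every young one, as had 513 of all 6753 genes. Cd55b and C1qbp are outside the naming rule and were chosen after their values were seen. DESeq2 called 0 genes of any kind in MΦs.

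Genes with the highest levels in their role lay partly in the cells that hold the 9 members and partly in ECs. C1s1 and C1ra, the proteases that C1q carries, were at 528 ± 157 CPM in FBs (SD, n = 6) and 275 ± 27.3 CPM in mesothelial cells (n = 5), while C1q itself was in MΦs. Cfp, or properdin, which stabilises the alternative convertase, was at 449 ± 150 CPM in MΦs, and the ficolin Fcna at 544 ± 501 CPM in MΦs. Clusterin (Clu), which blocks the terminal complex, was at 1432 ± 564 CPM in ECs. Cd93, once described as a C1q receptor, was at 430 ± 91.0 CPM in ECs, and Itgb2, a chain of complement receptors, at 387 ± 86.2 CPM in monocytes (n = 3). Colec12, a collectin, was at 257 ± 98.2 CPM in mesothelial cells. Of the terminal components C7 was at 160 ± 117 CPM in FBs, and C8a reached its highest mean in erythroid cells through 3 UMIs in 1 library. Within the classical route, mean C1q was thus highest in MΦs and mean C1s1, C1ra and Serping1 in FBs or mesothelial cells. Against the cells named monocytes, MΦs were higher in 1 of 3 shared libraries for C1qa and C1qc, and in 2 of 3 for C1qb.

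Over 59 profiles of library and cell type, the genes whose log2(CPM + 10) followed each member most closely were sought among 7697 genes outside the complement list. The profiles share libraries and depth, so these correlations are descriptions. C1qc was closest to Ccl24 (Pearson r = 0.944), Cd163 (0.929) and Retnla (0.920), and C1qa to Fcrls (0.890), Ccl24 and Cd163. C1qb was closest to Fcrls (0.881), Ccl24 and F13a1, and C3ar1 to Ccl24 (0.931), Cd163 and Fxyd2. Serping1 was closest to Igfbp5 (0.933), Nbl1 and Aebp1, and C3 to Fbln1 (0.852), Pcolce and Bicc1. C4b had the lowest best value among the members with counts, 0.778 with Igf1, followed by Rnase4 and Timp2. Cfb and Cfd were too sparse in named cells for such a value to be read.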

How the data were processed

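Single cell RNA was captured from 6 PA digests with 10x Genomics 3′ v3.1 chemistry, which counts 1 tag per molecule. The deposited files hold UMI counts per gene and barcode, not normalized. Per the labels and the study's methods, the authors used cutadapt for trimming and STARsolo for alignment to GRCm38.p6 and counting. A 3′ tag does not scale with gene length. Barcodes with at least 500 UMIs, 300 genes and at most 20% mitochondrial UMIs were kept. Doublets were removed with scrublet in scanpy 1.11.5 (303 barcodes, 0.963% to 3.03% per library). Cells of all libraries were clustered together, without complement genes and without a step to align libraries. A cluster was named where at least 3 markers and over 40% of a list were raised, with a marker among its 10 leading genes. The erythroid list was passed over where another list also met the first condition. Myeloid subclusters that fitted a non-myeloid list were left unnamed. Counts were summed per library and type, with at least 10 cells. Age was tested with edgeR 4.0.16 (quasi-likelihood, TMM, Benjamini-Hochberg over all genes of a type), on genes whose share of cells with a UMI was over 5% in 3 or more libraries, with DESeq2 1.42.0 as an alternative, and MΦs against FBs with an exact sign-flip permutation test. The SE of an edgeR estimate is approximate, its absolute log2 fold change divided by the square root of the quasi-likelihood F statistic. Scripts were tested on simulated data. Members and lists were chosen with earlier results of these data known. Other complement genes were named by a rule, the highest type mean in each role with up to 2 genes a role, and similar genes by the 3 largest Pearson r. A gene that this rule also named is not reported here. Intervals and limits at a count of 0 cover counting error only. Gene positions are those of GENCODE M21 for the matching gene IDs, since 35 of 53647 IDs carry the same version there, and the annotation release behind the counts could not be checked. Promoters were read from RefSeq, where 5 of the 9 members had an entry. The window of C1qc is not printed because it lies in an exon of GENCODE M21.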

Additional observations from a re-analysis of the deposited data

Results flagged for a closer look

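In airway epithelial cells Serping1 was at 252 CPM at 28 months, far from the 37.9 to 64.0 CPM of the other 3 old libraries. Barcodes with at most 100 UMIs held 1154462 UMIs at 28 months, the fewest of any library. In them C3 was at 717 CPM at 28 months, against 178 to 222 CPM in the other 3 old libraries. C4b in the same barcodes was at 279 CPM at 28 months, against 50.3 to 72.1 CPM. These are 3 of 24 groups of 4 old libraries checked for a sample that stands apart, and chance flags about 1 in 20. C4b was at 1369 CPM in an unnamed cluster led by Prg4 and Saa3, outside every comparison, where the highest mean of a named type was 850 CPM. By library it ran from 601 CPM in the young male to 1838 CPM in the young female. Cfd was at 22204 CPM in an unnamed cluster led by Car3 and Adipoq, where the highest mean of a named type was 14.0 CPM.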

How the results depend on the processing

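Under every alternative counted, no member passed the age test in any type, and of 202 member estimates 189 kept their direction and 13 reversed. The alternative with complement genes kept in the clustering was left out of this count of member estimates. The library set as a covariate reversed all 6 members in MΦs (C1qa -1.70, C1qb -1.10, C1qc -1.76, C4b -1.61, C3ar1 -1.45 and C3 0.21) and Serping1 in SMCs (-0.13) and ECs (0.60). Without the young female (young replicate 2), C3 was at -0.27 and Serping1 at -0.034 in FBs and Serping1 at 0.47 in ECs. Removing shared barcodes put Serping1 in ECs at 0.27, and the filter of 1000 UMIs and 500 genes put C3 in FBs at -0.045. With 1 library left out, C3 in FBs ran from -0.27 to 1.17, Serping1 in FBs from -0.034 to 1.05 and Serping1 in ECs from -1.004 to 0.47. For MΦs against FBs, C4b was at 0.11 and Cfb at 0.018 without the 24 month mouse, at 1.30 and 0.077 with perivascular MΦs alone, and Cfb at 0.022 under the stricter filter. With 1 library left out, C4b ran from -0.95 to 0.11 and Cfb from -0.11 to 0.018. The number of members that passed there was 6, and 0 under the stricter filter (5 libraries, smallest exact permutation p 0.0625), 0 with perivascular MΦs alone (2 libraries, smallest 0.5) and 0 to 0 when 1 library was left out, designs that cannot pass. Genes called in FBs were 3, and 0 with filterByExpr, the library set, the stricter filter or thinning, 20 with no gene filter, 0 to 3 with 1 library left out, and 2 in DESeq2. In SMCs 4 were called, and 13 without TMM, 25 with no gene filter, 2 with doublets kept, 7 with complement genes clustered, 0 with filterByExpr, DESeq2, the library set or thinning, and 0 to 2 with 1 library left out. In ECs 0 were called, and 7 with no gene filter, 1 in DESeq2 and 0 to 1 with 1 library left out. With no gene filter 19 were called in MΦs and 171 in airway cells, against 0. Leaving out TMM moved the median log2 difference of all genes from 0.49 to 0.11 in SMCs, 0.30 to 0.18 in MΦs and 0.02 to 0.19 in airway cells. The cause of these changes was not tested. The stricter filter left too few young libraries to fit SMCs and ECs. No paired analysis was possible because replicate numbers only name libraries in accession order, and the labels tie no young mouse to an old one. Depth limits C4b in young SMCs, at 0 UMIs, and in young FBs, at 11 and 3 UMIs. It also limits Serping1, at 5 UMIs over both young libraries in SMCs and 10 in ECs.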

Other observations

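In an unnamed cluster of 39 cells led by Cxcl13, Enpp2 and Cd55, C3 was at 3892 CPM and Serping1 at 494 CPM. In a cluster of 174 cells from the 27 and 28 month libraries, led by Fcer1g and Tyrobp, C1qa was at 946 CPM. This cluster took no name in the first clustering. Its cells were clustered again with the myeloid cells and most were then named, so this value overlaps the myeloid values above. Among MΦs, no C1q chain was seen in 166 cells of the young male, 12 of the young female, and 33, 107, 5 and 18 cells at 20, 24, 27 and 28 months.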
